A study of Homo sapiens with 12 samples.

Results

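The transcripts described here are those of 10 genes of the Notch pathway: the ligands JAG1, JAG2 and DLL1, the receptors NOTCH1, NOTCH2 and NOTCH3, and the target genes HES1, HEY1, HEY2 and NRARP. They were chosen by symbol, as probe sets whose array annotation is exactly that gene. All 10 were found, with 1 probe set each, among 18417 genes measured by a probe set with a single symbol. They were measured in U2OS-ERα cells, a human osteosarcoma line that carries estrogen receptor α, on 12 Affymetrix Human Gene 1.0 ST arrays. The 4 groups had 3 biological replicates each: SRC-1 siRNA with 17-β-estradiol, SRC-1 siRNA with ethanol vehicle, non-targeting siRNA with estradiol, and non-targeting siRNA with vehicle. All cells received 50 nM siRNA and were kept in phenol red-free medium with charcoal-stripped serum, and hormone or vehicle was given for 3 h. The estradiol concentration is not given in the sources used here. All arrays come from a single line, and nothing in the labels says whether replicates were separate transfections, so p-values measure the spread among these samples.

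Notch is a short-range signal. A ligand on the surface of a cell, of the Jagged or Delta-like type, binds a Notch receptor on its neighbour, and ADAM proteases and then γ-secretase cut the receptor. The freed intracellular domain enters the nucleus, joins the DNA-binding protein RBPJ and a Mastermind coactivator, and switches on genes of the HES and HEY families, which encode transcriptional repressors. In bone, the pathway is known for its part in the maturation of osteoblasts.

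Values are log2 expression, and a difference of 1 is a 2-fold change. A gene was called changed where its limma p was under 0.01 and also under 0.05 after Benjamini-Hochberg adjustment over the 29094 probe sets tested. Array medians lay between 6.86 and 6.90, and arrays of the same group correlated at 0.9967 to 0.9979 across probe sets. Differences of 2 groups had a standard error of 0.07 log2 at the median, and the number of arrays limits this precision. NCOA1, the gene of the SRC-1 coactivator, read 6.79, 6.88 and 6.92 with SRC-1 siRNA and 9.15, 9.06 and 9.02 with non-targeting siRNA under estradiol. Under vehicle it read 6.18, 5.62 and 5.78 with SRC-1 siRNA and 8.81, 8.72 and 8.83 with non-targeting siRNA. SRC-1 siRNA thus lowered NCOA1 4.6-fold under estradiol and 7.6-fold under vehicle. With SRC-1 siRNA NCOA1 was 1.00 log2 higher with estradiol than with vehicle and was called (limma adjusted p = 0.00029). With non-targeting siRNA it was 0.29 higher and not called (limma adjusted p = 0.275), and the difference of these 2 effects, 0.71, was not called. This is also the difference between the 2 knockdown effects, so the smaller fold under estradiol did not pass the test. ESR1, which encodes the receptor, averaged 12.03 to 12.16 in the 4 groups. Of 7 measured osteoblast markers each averaged 6.62 to 12.54 and none was below an array's lower quartile on any array, among them SPARC, COL1A1 and RUNX2. Of 5 endothelial markers PECAM1 was below it on 11 of 12 arrays and KDR on 5, and CDH5, VWF and TEK on 0. Of 4 measured blood markers PTPRC was below it on all 12 and HBB on 1, and CD3E and CD68, which averaged 10.61, on 0. The 5 epithelial markers were below it on 0 arrays, and KRT8 and KRT18 averaged 11.16 and 11.91. None of these endothelial, blood and epithelial genes was called by limma in any comparison here. In RNA from whole cultures, fewer expressing cells and less RNA per cell cannot be told apart.

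Estradiol lowered JAG1, and with SRC-1 siRNA it also lowered HEY1 and raised HES1, so that 2 target genes of the pathway went in opposite directions. With non-targeting siRNA HEY1 and HES1 went the same ways without being called. Neither JAG2 nor DLL1, the other ligands, and no receptor was called for estradiol with either siRNA. SRC-1 siRNA lowered JAG1 and NOTCH2 under vehicle. The plot of the members by array shows these values.

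**Figure D1:**
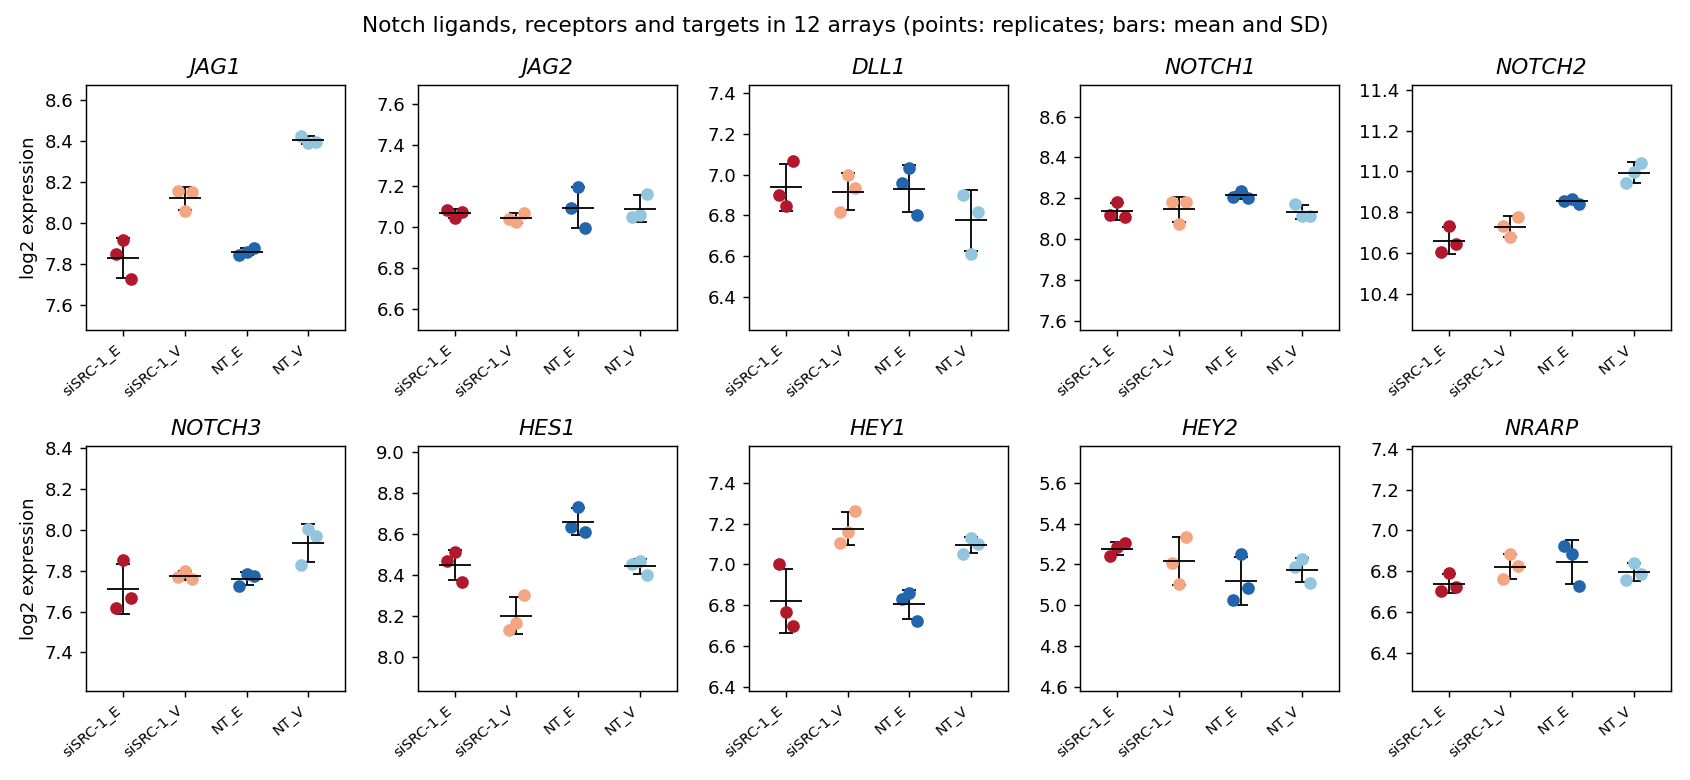
Log2 expression (y axis, each panel spanning 1.2 log2) of the 10 members in the 4 groups (x axis); coloured points are the 3 arrays of a group, black bars the mean and SD. JAG1 is highest with non-targeting siRNA and vehicle, NOTCH2 is lower with SRC-1 siRNA, and HES1 is higher and HEY1 lower with estradiol.

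The stretches before the transcription start of JAG1 and HES1 are shown because these are the ligand and a target gene that changed. They were taken from RefSeq on GRCh38.p14, whose table held 8 of the 10 members, all but DLL1 and HEY1, which were not searched. Each line gives the 250 bases before the start, 5′ to 3′ on the gene's strand, at chr20:10674000-10674249 on the minus strand for JAG1 and at chr3:194135898-194136147 on the plus strand for HES1. Capitals mark TGGGAA, the core of the RBPJ motif, searched on both strands. Only these exact letters were searched, so other forms of the motif are not marked or counted.
JAG1: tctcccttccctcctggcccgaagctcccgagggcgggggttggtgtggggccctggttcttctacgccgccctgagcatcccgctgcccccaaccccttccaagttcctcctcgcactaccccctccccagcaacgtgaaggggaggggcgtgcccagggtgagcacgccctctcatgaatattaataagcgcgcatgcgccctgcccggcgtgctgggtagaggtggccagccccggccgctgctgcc
HES1: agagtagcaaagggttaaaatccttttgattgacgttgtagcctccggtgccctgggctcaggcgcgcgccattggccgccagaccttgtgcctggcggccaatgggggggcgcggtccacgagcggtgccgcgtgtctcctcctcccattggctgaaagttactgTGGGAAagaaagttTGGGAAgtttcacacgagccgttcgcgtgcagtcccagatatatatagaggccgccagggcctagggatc

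HES1 held the RBPJ core at 2 places, starting 84 and 70 bases before the start and reading in the same direction, and the JAG1 stretch held none. Among the 8 members it occurred in HES1 and, at 1 place, in HEY2, against 20.8% of all 35116 promoter stretches of this length. The N-box CACNAG, a motif of HES proteins, occurred at 3 places in HES1 and at 1 in NOTCH3, against 32.0% of all stretches. The estrogen response element, the arms GGTCA and TGACC with NNN between them, occurred in none of the 8 members, against 0.0399% of all stretches. The arm GGTCA by itself occurred at 1 place each in JAG2 and NOTCH2, against 32.6% of all; every full element contains it. These matches describe letters in the window and not binding.

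JAG1 encodes Jagged1, the ligand whose gene is mutated in most cases of Alagille syndrome. With non-targeting siRNA it read 7.84, 7.86 and 7.88 with estradiol, against 8.43, 8.39 and 8.39 with vehicle. The groups lay far apart compared with their spread, the means being 7.86 ± 0.02 and 8.40 ± 0.02 (SD, n = 3). Estradiol thus lowered JAG1 1.46-fold (log2 -0.55 ± 0.05 SE, limma adjusted p = 0.000114). It was the only 1 of the 10 members called in this comparison, in which 0.873% of the tested probe sets passed as lower and 1.85% as higher. A further 4 members had an unadjusted p under 0.05, which made 5 of 10 with JAG1, against 3863 of the 29094 probe sets.

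With SRC-1 siRNA, JAG1 read 7.85, 7.92 and 7.72 with estradiol, against 8.16, 8.06 and 8.15 with vehicle. The groups again did not overlap, and the decrease was 1.22-fold (log2 -0.29 ± 0.05 SE, limma adjusted p = 0.00662). The estradiol arrays of both siRNAs lay at a like level, whereas the vehicle arrays with SRC-1 siRNA were all lower than those with non-targeting siRNA. Set against each other, the 2 estradiol effects of JAG1 were 0.25 log2 apart (95% interval 0.09 to 0.41, not adjusted for the choice of gene). Its limma p was 0.00543 unadjusted and 0.556 over all probe sets, so it was not called; 0% of all probe sets, 0 in number, passed that test, and 2102 had an unadjusted p under 0.05.

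JAG2, a second Jagged ligand, lay between 7.0 and 7.20 on all 12 arrays. Its estradiol effect was 0.02 log2 with SRC-1 siRNA (95% interval -0.10 to 0.14) and 0.00 with non-targeting siRNA (-0.12 to 0.12). DLL1, a Delta-like ligand, lay between 6.61 and 7.07, with estradiol effects of 0.02 (-0.18 to 0.22) and 0.15 (-0.04 to 0.35). With neither siRNA did the interval of JAG2 or DLL1 reach down to the JAG1 value, a comparison that was not tested.

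**Figure D2:**
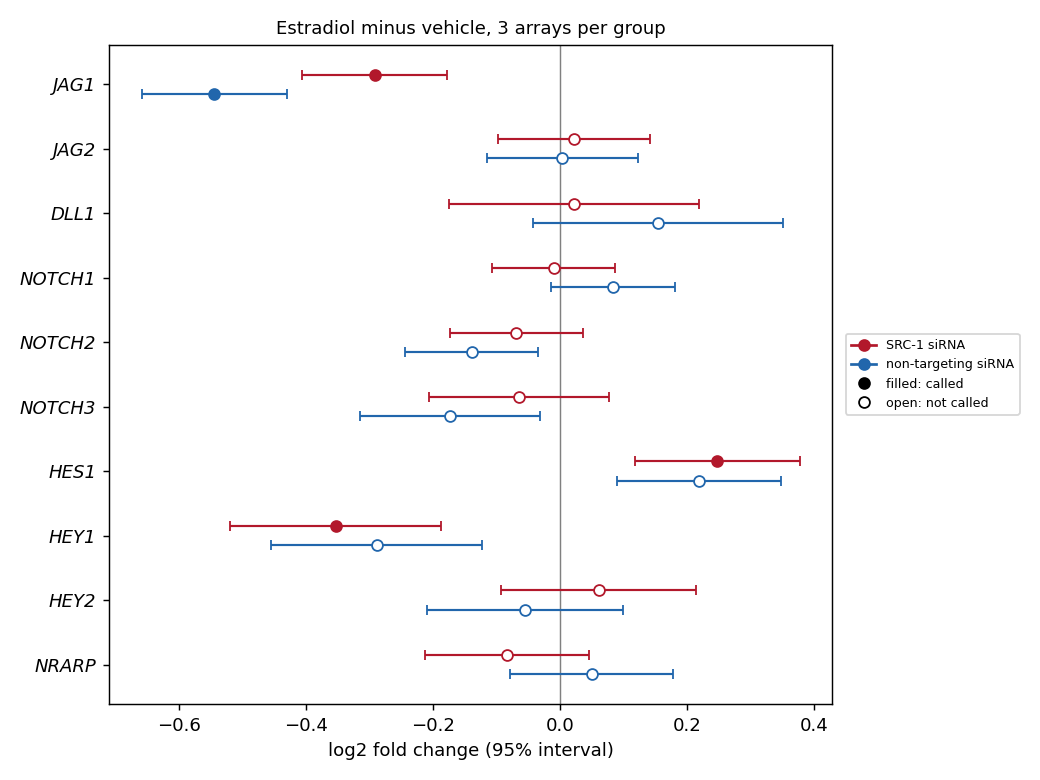
Log2 fold change of estradiol over vehicle (x axis) for the 10 members (y axis) with SRC-1 siRNA (red) and non-targeting siRNA (blue), with 95% intervals from limma; filled points were called. JAG1 at -0.29 and -0.55 is called with both siRNAs, and HES1 at 0.25 and HEY1 at -0.35 are called with SRC-1 siRNA; with non-targeting siRNA they stand open at 0.22 and -0.29.

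Among the target genes, HES1 encodes a basic helix-loop-helix repressor that also represses its own gene. With SRC-1 siRNA it read 8.47, 8.51 and 8.37 with estradiol, against 8.13, 8.17 and 8.30 with vehicle, a 1.19-fold rise (log2 0.25 ± 0.06 SE, limma adjusted p = 0.0293). With non-targeting siRNA it read 8.64, 8.73 and 8.61 with estradiol, against 8.45, 8.47 and 8.40 with vehicle. That difference was nearly as large (0.22 ± 0.06 SE) but was not called (limma adjusted p = 0.0909). The groups did not overlap with either siRNA.

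HEY1 encodes a related repressor. With SRC-1 siRNA it read 7.0, 6.77 and 6.70 with estradiol, against 7.10, 7.16 and 7.26 with vehicle, a 1.28-fold decrease (log2 -0.35 ± 0.08 SE, limma adjusted p = 0.0173). With non-targeting siRNA it read 6.83, 6.86 and 6.72 with estradiol, against 7.05, 7.13 and 7.10 with vehicle (-0.29 ± 0.08 SE, limma adjusted p = 0.0814, not called). Again no estradiol array reached a vehicle array of the same siRNA. The estradiol effects of HES1 and HEY1 differed between the siRNAs by 0.03 log2 (95% interval -0.15 to 0.21) and -0.06 (-0.30 to 0.17). With SRC-1 siRNA, the HES1 call was lost without replicate 1 or 2 of either treatment and the HEY1 call without replicate 2 or 3 of either treatment, with limma adjusted p-values up to 0.109 and 0.071.

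The mean of both estradiol effects in the same fit, a contrast added after seeing the data, was 0.23 ± 0.04 log2 (SE) for HES1, -0.32 ± 0.05 for HEY1 and -0.42 ± 0.04 for JAG1. The limma adjusted p-values were 0.00445, 0.00285 and 2.37e-05. These 3 were the members called, 1 higher and 2 lower, and of all those tested 6.11% passed as higher and 3.85% as lower. With the mean of the array control probe sets as a covariate, all 3 calls were lost, at -0.43 ± 0.09 log2 (SE) for JAG1, 0.33 ± 0.10 for HES1 and -0.19 ± 0.12 for HEY1 (limma adjusted p = 0.0673, 0.22 and 0.607).

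HEY2, a close relative of HEY1, lay between 5.03 and 5.34. On 6 of 12 arrays it was below the array's lower quartile, so its signal is not shown to exceed background. NRARP, an ankyrin-repeat protein that is induced by Notch and limits it, lay between 6.70 and 6.93. Its estradiol effect was -0.08 log2 with SRC-1 siRNA (95% interval -0.21 to 0.04) and 0.05 with non-targeting siRNA (-0.08 to 0.18). Thus of the 4 target genes 1 was called higher and 1 lower with SRC-1 siRNA, beside 4.49% and 2.39% of all probe sets. With non-targeting siRNA 0 were called, beside 1.85% and 0.873%. HES1 and HEY1 gave 0.22 and -0.29 log2 there, against 0.25 and -0.35 with SRC-1 siRNA, and neither difference between the siRNAs was called.

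None of the 3 receptors was called for estradiol in limma with either siRNA. NOTCH1 lay between 8.08 and 8.23 on all arrays, with estradiol effects of -0.01 log2 with SRC-1 siRNA (95% interval -0.11 to 0.09) and 0.08 with non-targeting siRNA (-0.01 to 0.18). NOTCH2 gave -0.07 (-0.17 to 0.04) and -0.14 (-0.24 to -0.03), and NOTCH3 -0.06 (-0.21 to 0.08) and -0.17 (-0.31 to -0.03). The values of NOTCH2 and NOTCH3 with non-targeting siRNA had limma adjusted p-values of 0.205 and 0.252 and were not called.

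Over the 10 members, 1 was called higher and 2 lower with SRC-1 siRNA, where 4.49% and 2.39% of all probe sets were called. The groups did not overlap for JAG1, HES1 and HEY1 there, 3 of 10 against 25.8% of all probe sets. With non-targeting siRNA they did not overlap for 6 of 10 (also NOTCH1, NOTCH2 and NOTCH3) against 21.0% of all. The members' median estradiol effect was -0.04 log2 with SRC-1 siRNA, against -0.02 over all probe sets, and -0.03 with non-targeting siRNA, against -0.01. The 4203 probe sets taken as array controls had array means of -0.003 to 0.178 log2 around their overall mean with estradiol and -0.159 to -0.024 with vehicle. With this mean as a covariate, JAG1 with non-targeting siRNA stayed called (-0.55 ± 0.07 SE, limma adjusted p = 0.00528). With SRC-1 siRNA, JAG1 was then -0.31 ± 0.12, HES1 0.37 ± 0.13 and HEY1 -0.18 ± 0.17 (SE), with limma adjusted p-values of 0.466, 0.396 and 0.791. Among the osteoblast markers COL1A2 fell by 0.22 log2 with SRC-1 siRNA (limma adjusted p = 0.047), and its part was not tested. The 6 other osteoblast markers measured were not called there, at -0.24 to 0.04 log2. The covariate separates estradiol from vehicle arrays, so it can take up estradiol effects too.

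SRC-1 siRNA against non-targeting siRNA under vehicle addresses the same genes without hormone. NOTCH2, a receptor with widespread expression, read 10.73, 10.68 and 10.78 with SRC-1 siRNA, against 10.94, 11.00 and 11.04 with non-targeting siRNA. The groups did not overlap, and the decrease was 1.2-fold (log2 -0.26 ± 0.05 SE, limma adjusted p = 0.0219). Under estradiol it read 10.60, 10.73 and 10.65 with SRC-1 siRNA, against 10.86, 10.87 and 10.84 with non-targeting siRNA (-0.19 ± 0.05 SE, limma adjusted p = 0.0729, not called).

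The NOTCH2 gene has near-identical partial copies, the NOTCH2NL genes, and its probe set 7919095 is annotated to NOTCH2 alone. Another probe set, 7904702, is annotated to 3 genes, NOTCH2 and copies of it, and was left out by the rule. It gave 0.04 ± 0.05 log2 (SE) for SRC-1 siRNA under estradiol and -0.06 ± 0.05 under vehicle, with limma adjusted p-values of 0.79 and 0.728. The NOTCH2 decrease was thus read by a single probe set and not by the shared one.

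JAG1 averaged 8.12 ± 0.06 with SRC-1 siRNA and 8.40 ± 0.02 with non-targeting siRNA under vehicle (SD, n = 3), a 1.22-fold decrease (log2 -0.28 ± 0.05 SE, limma adjusted p = 0.0233). Under estradiol the averages were 7.83 ± 0.10 and 7.86 ± 0.02, and the difference was -0.03 log2 (95% interval -0.14 to 0.08). JAG1 and NOTCH2 were the 2 members called under vehicle, both lower, while 0.945% of the 29094 tested probe sets passed as lower and 0.265% as higher. Of the osteoblast markers, SPP1 and ALPL fell with SRC-1 siRNA too, by 0.87 and 0.43 log2 under estradiol and by 0.71 and 0.23 under vehicle, and their part in these results was not tested. The 5 other osteoblast markers measured were not called and went both ways, at -0.09 to 0.12 under estradiol and -0.12 to 0.17 under vehicle. The call of each member was lost in limma when any of several arrays was left out: for JAG1 each of the 6 compared arrays (adjusted p up to 0.102). For NOTCH2 these were non-targeting replicates 2 and 3 and SRC-1 siRNA replicates 1 and 2 (adjusted p up to 0.104).

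HES1 was lower with SRC-1 siRNA under both treatments without passing the test in either. The differences were -0.21 ± 0.06 log2 (SE, limma adjusted p = 0.104) under estradiol and -0.24 ± 0.06 (adjusted p = 0.0901) under vehicle. Averaged over both treatments, a contrast added after seeing the data, HES1 fell by 0.23 log2 (limma adjusted p = 0.0103), NOTCH2 by 0.23 (0.00297) and JAG1 by 0.16 (0.0344). These were the 3 members called, all lower, and of all those tested 3.05% passed as lower and 2.05% as higher. JAG1 kept this call in 8 of 23 alternatives, among them 1 of the 12 that leave out an array. The order of HES1 means was 8.66 with non-targeting siRNA and estradiol, 8.45 with SRC-1 siRNA and estradiol, 8.44 with non-targeting siRNA and vehicle, and 8.20 with SRC-1 siRNA and vehicle. The middle 2 groups overlap.

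**Figure D3:**
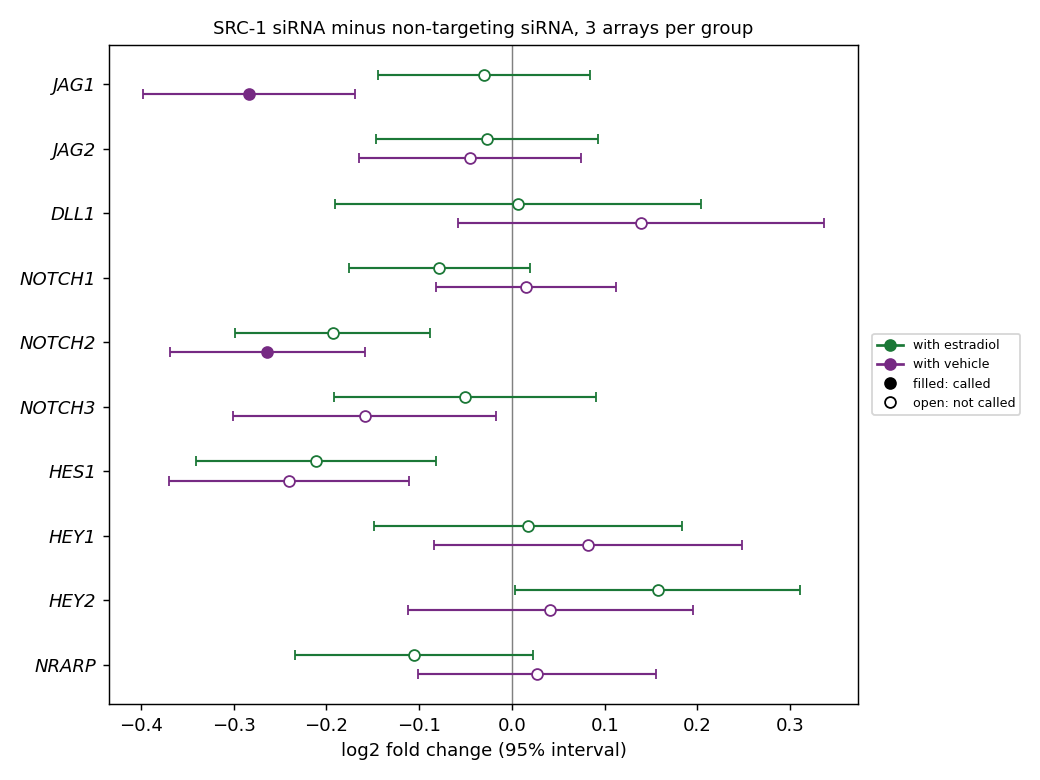
Log2 fold change of SRC-1 siRNA over non-targeting siRNA (x axis) for the 10 members (y axis) with estradiol (green) and with vehicle (purple), with 95% intervals from limma; filled points were called. JAG1 and NOTCH2 under vehicle are the called values, and the JAG1 value with estradiol is close to 0.

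HEY1 did not follow HES1 here: its differences were 0.02 log2 (95% interval -0.15 to 0.18) under estradiol and 0.08 (-0.08 to 0.25) under vehicle. NOTCH3 gave -0.05 (-0.19 to 0.09) and -0.16 (-0.30 to -0.02), and NOTCH1 -0.08 (-0.18 to 0.02) and 0.02 (-0.08 to 0.11). NRARP gave -0.11 (-0.23 to 0.02) and 0.03 (-0.10 to 0.16), HEY2 0.16 (0.00 to 0.31) and 0.04 (-0.11 to 0.20), JAG2 -0.03 and -0.05, and DLL1 0.01 and 0.14. Under estradiol limma called 0 of 10 members, with 3 at an unadjusted p under 0.05, while 1.07% of the 29094 tested probe sets passed as lower and 0.732% as higher. Of these probe sets 4589 had an unadjusted p under 0.05. Groups did not overlap for 3 of 10 members under estradiol (NOTCH1, NOTCH2 and HES1), against 22.3% of all probe sets, and for 4 of 10 under vehicle (JAG1, NOTCH2, NOTCH3 and HES1), against 18.4%.

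The rest of the pathway was followed in a list of 51 genes, of which 47 were measured. With SRC-1 siRNA, estradiol raised 3 and lowered 4 of them, beside 4.49% and 2.39% of all probe sets called higher and lower. With non-targeting siRNA it raised 2 and lowered 1, beside 1.85% and 0.873% of all probe sets. The list's median effect was -0.07 log2 with SRC-1 siRNA and -0.02 with non-targeting siRNA.

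TLE3, a Groucho-type corepressor that HES proteins recruit, changed most. It read 10.47, 10.38 and 10.32 with estradiol and SRC-1 siRNA, against 9.76, 9.74 and 9.80 with vehicle (log2 0.63 ± 0.04 SE, limma adjusted p = 8.26e-06). With non-targeting siRNA it read 10.45, 10.44 and 10.44 with estradiol, against 9.72, 9.75 and 9.74 with vehicle (0.71 ± 0.04 SE, adjusted p = 3.2e-06). The 4 other corepressors measured, SPEN, TLE1, TLE2 and TLE4, were not called and lay between -0.16 and 0.09 in the comparisons with either siRNA. TLE4 was below the array's lower quartile on 11 of 12 arrays, so its signal is not shown to exceed background.

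The fringe enzymes add a sugar to Notch receptors that alters which ligands they answer to. MFNG rose with estradiol, by 0.50 ± 0.07 log2 (SE) with SRC-1 siRNA and 0.40 ± 0.07 with non-targeting siRNA (limma adjusted p = 0.0015 and 0.00935). LFNG rose by 0.34 ± 0.07 with SRC-1 siRNA (adjusted p = 0.0108), and gave 0.23 ± 0.07 with non-targeting siRNA, which was not called (0.113). The third fringe gene, RFNG, gave 0.08 and 0.13 and was not called, nor were POFUT1 and POGLUT1, which add the first sugars to the receptor.

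MAML2, a Mastermind coactivator of the Notch nuclear complex, fell by 0.26 ± 0.06 log2 (SE) with SRC-1 siRNA and by 0.32 ± 0.06 with non-targeting siRNA (limma adjusted p = 0.0163 and 0.00869). RBPJ itself, MAML3 and SNW1 were not called and lay between -0.06 and 0.14. With SRC-1 siRNA 3 further genes were called lower: DTX2 at -0.49 ± 0.11, DTX4 at -0.20 ± 0.05 and HES2 at -0.36 ± 0.10 log2 (SE, limma adjusted p = 0.0272, 0.0443 and 0.0483). DTX2 and DTX4 encode Deltex ubiquitin ligases, and HES2 a HES-family repressor. With non-targeting siRNA they gave -0.08, -0.19 and -0.07, and the differences between the siRNAs were not called. HES2 and DTX4 each kept the call in 2 of the 12 fits that leave out an array, and DTX2 in 8. With the control mean as covariate HES2 turned to 0.04 ± 0.18 log2 (SE) and DTX2 was -0.28 ± 0.26, and neither was called. MAML2 at -0.38 ± 0.12, LFNG at 0.44 ± 0.15 and DTX4 at -0.21 ± 0.12 were at least as large as without it but, with larger standard errors, were not called either (limma adjusted p = 0.346, 0.393 and 0.648). TLE3 and MFNG stayed called. Averaged over both siRNAs, the contrast added after seeing the data, TLE3, MFNG, LFNG and ITCH were called higher and MAML2, DTX2 and DTX4 lower, 4 and 3 of 47 beside the 6.11% and 3.85% of all tested. ITCH, a ubiquitin ligase that acts on Notch, gave 0.13 ± 0.03 log2 (SE, limma adjusted p = 0.0247).

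**Figure D4:**
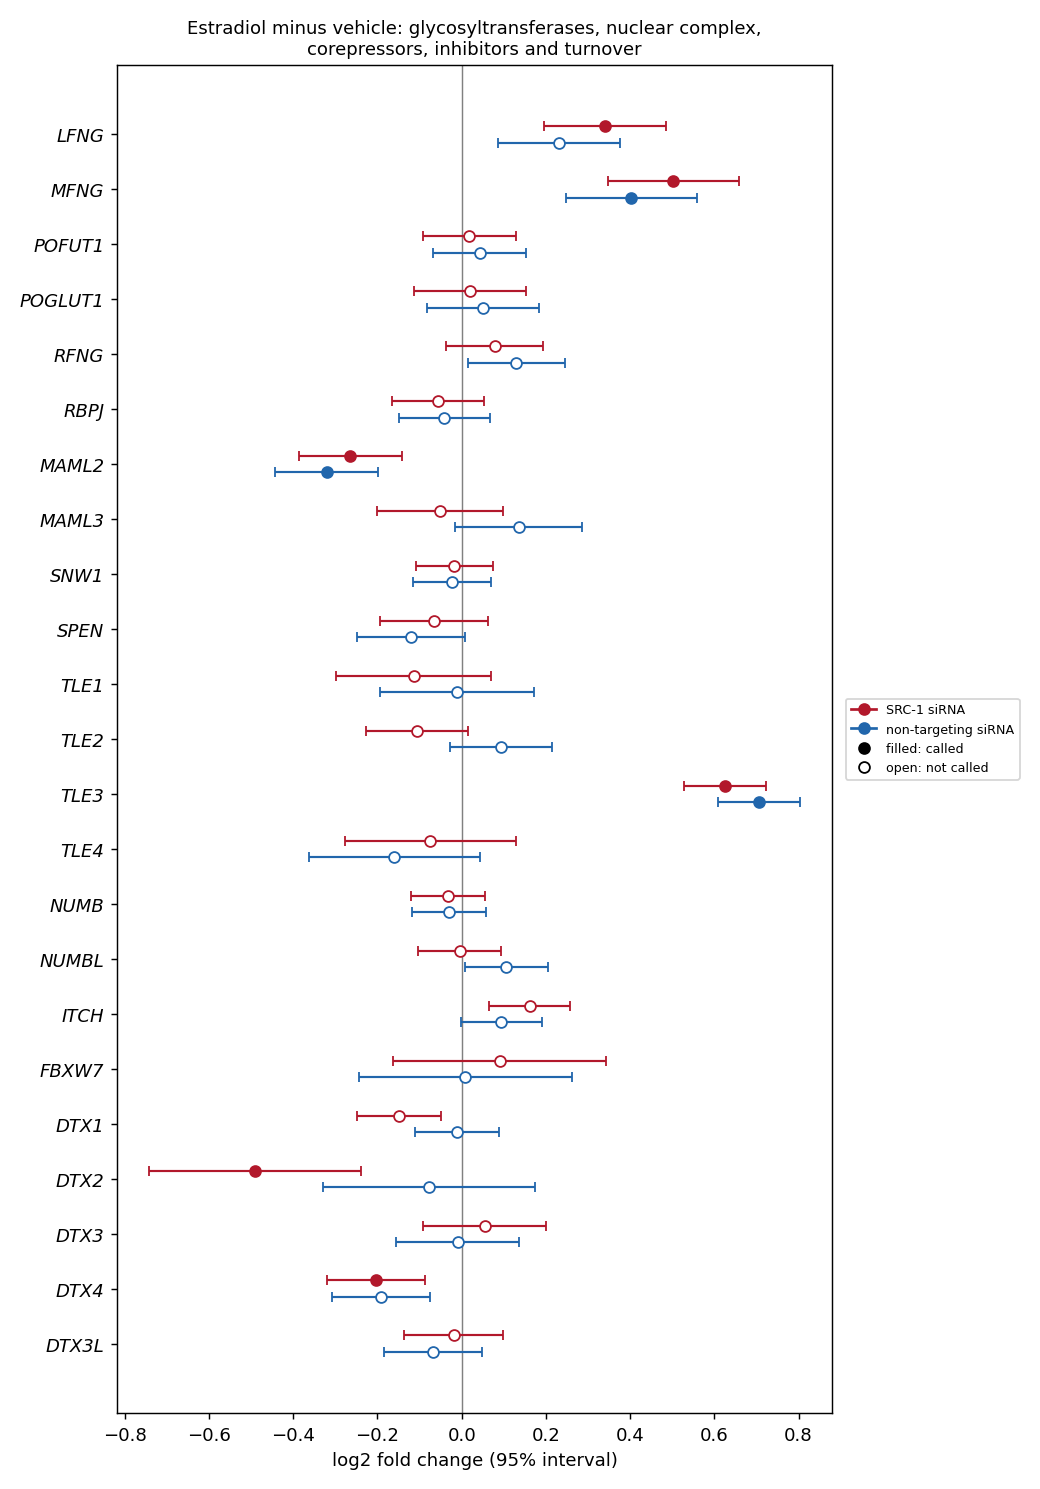
Log2 fold change of estradiol over vehicle (x axis) for 23 pathway genes of 4 roles (y axis) with SRC-1 siRNA (red) and non-targeting siRNA (blue), with 95% intervals from limma; filled points were called. TLE3, MFNG and MAML2 are called with both siRNAs, while most genes lie near 0.

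None of the 5 other genes listed as ligands, the receptor NOTCH4, the 3 ubiquitin ligases of ligand uptake or the 8 proteases was called for estradiol in limma. DLK2, with the highest mean of the 5 genes listed under that role, gave -0.04 log2 with SRC-1 siRNA and -0.10 with non-targeting siRNA. ADAM10, the protease that makes the first cut after ligand binding, gave 0.02 and -0.01, MIB1, which ubiquitinates ligands, 0.11 and 0.05, and NOTCH4 -0.15 and -0.12. Of inhibitors and other HES genes without a call, NUMB, an endocytic antagonist of Notch, gave -0.03 and -0.03, and HES4 -0.19 and -0.03.

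For SRC-1 siRNA, limma called none of the 47 genes within either treatment. At an unadjusted p under 0.05 there were 5 under estradiol and 8 under vehicle. Over the 29094 tested probe sets, 524 were called under estradiol and 352 under vehicle, and 4589 and 3691 had an unadjusted p under 0.05. The 47 genes' values lay between -0.28 and 0.12 log2 under estradiol and between -0.20 and 0.20 under vehicle. TLE3 gave -0.05 and 0.03, LFNG 0.05 and -0.06, NUMB -0.09 and -0.09, SNW1 -0.04 and -0.05, and HES4 -0.10 and 0.06. DLK2 gave -0.01 and -0.07, NOTCH4 -0.06 and -0.02, MIB1 0.05 and -0.01, and ADAM10 0.03 and 0.01. Averaged over both treatments, 1 of the 47 was called, MAML2 at -0.17 ± 0.04 log2 (SE, limma adjusted p = 0.0329), beside 3.05% of the tested probe sets called lower and 2.05% higher.

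Other genes whose values followed the members most closely were sought over the 12 arrays, which share their groups with the members. For JAG1 these were LRRC4C, a synaptic adhesion protein, IL6, the cytokine, and CLDN1, a tight-junction protein, with Pearson's r of 0.962, 0.948 and 0.944. LRRC4C changed by -0.67 log2 with estradiol and SRC-1 siRNA and by -0.87 with non-targeting siRNA, IL6 by -0.35 and -0.65. For HES1 they were NBEAL2, IL24, a cytokine of the interleukin-10 family, and GBF1, a Golgi exchange factor (0.973, 0.969 and 0.962). IL24 gave 0.51 and 0.42 with estradiol, and -0.50 and -0.58 for SRC-1 siRNA under estradiol and vehicle. For HEY1 they were ZNF425, LRRC8A, a volume-regulated anion channel subunit, and HEXIM1, an inhibitor of the elongation factor P-TEFb (0.964, 0.960 and 0.937). For NOTCH2 they were ASAP2, EFR3B and SCRN1 (0.969, 0.968 and 0.958), and ASAP2 gave -0.62 and -0.57 for SRC-1 siRNA under estradiol and vehicle. These correlations describe 12 arrays in 4 groups and carry no test.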

How the data were processed

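RNA of 12 samples was hybridised to Affymetrix Human Gene 1.0 ST arrays. Each probe set has a deposited log2 value per array; the authors processed the arrays with the affy package and tested with limma, per the series' design text and the submitters' processing notes. Versions, background correction, normalization and summarization are not given in the sources used here. No further normalization was applied. The table holds 33297 probe sets. Those numbered under 7896740, where gene annotation starts, were left out as array controls (4203), which is inferred from the numbering. Of the 29094 tested, 19460 carry 1 symbol, 1754 several and 7880 none.

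A model of 4 group means and moderated variances was fitted over the 12 arrays (limma 3.58.1, R 4.3.3). Thresholds are those of the design text, and tests are two-sided. The code was tested on simulated data.

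All members are named whatever their result. Of the 51 further pathway genes, those called are named, and otherwise the gene with the highest mean of its role. For each called member the 3 genes of highest correlation are named, among those with a mean at or above the lower quartile. Members and lists were chosen with earlier results of these data known. Arrays have no read depth; their number limits the precision. Alternatives changed pairing, samples, filter, normalization, variance, annotation, controls, threshold and each array.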

Additional observations from a re-analysis of the deposited data

How the results depend on the processing

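JAG1 kept its call for estradiol with non-targeting siRNA in all 24 alternatives, between -0.56 and -0.53 log2. With SRC-1 siRNA JAG1 was called in 22 of 24, HEY1 in 18 and HES1 in 15; for SRC-1 siRNA under vehicle, JAG1 was called in 17 and NOTCH2 in 19. No called member changed direction in any of these. The cause of the changes below was not tested.

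The number of members called for estradiol with non-targeting siRNA was 3 without the lowest 40% of probe sets (fewer tested), 2 with a trended and robust variance, and 1 to 2 with an array left out. All probe sets called there numbered 1090 of 17456, 1130 of 29094 and 531 to 783 of 29094, against 793 in the main fit. With SRC-1 siRNA the number of members was 0 with only the compared arrays (fewer samples), 0 with the control mean as covariate and 1 to 3 with an array left out. Of all 29094 probe sets, 958, 106 and 1042 to 2956 were called there, against 2001 in the main fit. HES1 also lost its call with a renewed quantile normalization and with array weights. For SRC-1 siRNA under vehicle the number of members was 0 with only the compared arrays and 0 to 2 with an array left out. All probe sets called there numbered 90 and 169 to 338, against 352 in the main fit. Under estradiol 2 members were called without the lowest 40%, 2 with the trended variance (NOTCH2 and HES1 each time) and 1 with single-symbol probe sets only. All probe sets called there numbered 1117 of 17456, 1246 of 29094 and 651 of 19460, against 524 of 29094 in the main fit. For the averaged estradiol effect 0 members were called with the covariate and 3 to 5 with an array left out. With the covariate JAG1 (-0.43) and HES1 (0.33) were as large as without it and HEY1 (-0.19) was smaller. All probe sets called there numbered 212 and 2076 to 3725, against 2898 in the main fit. For the averaged SRC-1 siRNA effect 0 members were called where a fold of at least 1.2 was asked for and 2 to 3 with an array left out. Of all probe sets, 423 and 897 to 1274 were called there, against 1483 in the main fit.

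Of the 47 further genes, the estradiol count with SRC-1 siRNA was 3 with only the compared arrays, 2 with the covariate and 3 to 9 with an array left out. All probe sets called there numbered 958, 106 and 1042 to 2956, as above. HES2 was reversed with the covariate, at 0.0417 log2 (limma adjusted p = 0.968). DTX4 kept its call in 10 of 24 alternatives and HES2 in 11.

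Deviations from the group means correlated above 0.1 in 4 of 12 pairs of arrays with the same replicate number (-0.035 to 0.209). Arrays with different numbers were not compared, so these values cannot tell whether the numbers pair the samples. With a replicate block, 3, 1, 0 and 2 members were called for estradiol with SRC-1 and non-targeting siRNA and for SRC-1 siRNA under estradiol and vehicle, as without it. In the same order, 2308, 807, 520 and 327 of all probe sets were called, against 2001, 793, 524 and 352 without it. JAG1 lost its call in the averaged SRC-1 siRNA effect.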
